A study of Mus musculus with 19 samples.

Results

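The 9 genes Gadd45a, Gadd45b, Gadd45g, Btg1, Btg2, Btg3, Ier2, Ier3 and Ier5 were described across all groups of an RNA sequencing study of mouse dorsal hippocampus. They were chosen by name, as members of 3 families of early response genes, and found by Ensembl identifier among the 51789 genes of the count table. All 9 passed the filter on low counts in every comparison. The rule itself uses no measured value, but the genes were chosen with earlier results of these data known.

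The study held 19 libraries of ribosomal-RNA-depleted total RNA from male C57BL/6J mice aged 2 to 4 months, in 2 experiments. In experiment 1 every animal carried the tetracycline transactivator (tTA+) and had undergone SOR, which stands for spatial object recognition in this field, though the labels give only the abbreviation. Of these libraries, 5 were DN+ (the DN transgene encodes a dominant-negative Nr4A) and 6 were DN- controls. In experiment 2 every animal was DN-, and 4 libraries after SOR stood against 4 from the homecage. SOR replicate 1 and homecage replicates 1 and 2 of experiment 2 were tTA-, and the other 5 libraries of that experiment were tTA+. The labels do not name the promoter that drives tTA, the time between SOR and dissection, or whether each library came from a separate animal, so p-values measure the spread between these libraries, which may be technical in part.

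GADD45 proteins are small stress and activity sensors that bind MAP3K4 upstream of the p38 and JNK kinases, bind PCNA, and promote active DNA demethylation. In the hippocampus Gadd45b is known as an activity-induced gene that demethylates promoters of growth factor genes. BTG proteins are antiproliferative adaptors: they recruit the CCR4-NOT deadenylase, which shortens the poly(A) tails of mRNAs, and BTG1 and BTG2 also bind the arginine methyltransferase PRMT1. The IER genes are immediate early genes: IER2 and IER5 are related in sequence, IER5 works with the phosphatase PP2A and the heat shock factor HSF1, and IER3, which is unrelated to them, regulates cell survival.

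Library totals ranged from 30855629 to 47992063 counts in experiment 1 and from 22258159 to 66991576 in experiment 2. SOR replicate 3 of experiment 2 had the smallest total, 22258159 counts, and the fewest genes detected, 27815. In that library Gadd45a, Gadd45g, Ier2 and Ier5 stood above the mean of the other SOR libraries by a margin at the 95.4th to 97.4th percentile of all genes tested, so the SOR values of the 9 genes are given with and without it. The summed level of 8 choroid plexus markers also varied widely within groups. It ranged from 20.5 to 4139 CPM (counts scaled by library size) in experiment 1, from 23.5 to 2201 CPM after SOR in experiment 2 and from 45.3 to 174 CPM in the homecage, and SOR replicate 3 had the lowest sum of experiment 2. Summed levels of 6 neuron markers lay between 4587 and 5442 CPM in experiment 2, lowest in SOR replicate 3, and between 5518 and 6128 CPM in experiment 1. The part of these markers in the values below was not tested. The DN transgene was not analysed here; the gene Nr4a1, whose row may also hold reads of such a transgene, had a level of 32.4 ± 4.27 CPM (SD, n = 5) in DN and 34.9 ± 12 CPM (n = 6) in control libraries. In bulk RNA, fewer cells of a type and less RNA per cell cannot be told apart.

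Promoter sequences of 8 of the 9 genes, all but Ier2, were found in the RefSeq table (GRCm38.p6), each as the 250 bases before the annotated start. The 5 below belong to the genes that the comparisons turn on: Gadd45b, Gadd45g and Ier5 had the smallest p-values after SOR, Btg1 was the gene whose groups separated by tTA genotype, and Btg2 is a close paralog of Btg1 that is known as a CREB target. Capitals mark letters that match, on either strand, the cyclic AMP response element TGACGTCA or its core TGACG, the TATA box TATAAA, or the CCAAT box. All are written 5′ to 3′ on the strand of the gene.
Gadd45b promoter, chr10:80929841-80930090 (plus strand): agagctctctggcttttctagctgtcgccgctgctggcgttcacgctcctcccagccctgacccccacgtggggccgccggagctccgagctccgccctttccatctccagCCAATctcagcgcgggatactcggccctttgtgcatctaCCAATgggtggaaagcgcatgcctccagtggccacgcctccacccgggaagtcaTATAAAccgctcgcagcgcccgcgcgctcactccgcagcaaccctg
Gadd45g promoter, chr13:51846425-51846674 (plus strand): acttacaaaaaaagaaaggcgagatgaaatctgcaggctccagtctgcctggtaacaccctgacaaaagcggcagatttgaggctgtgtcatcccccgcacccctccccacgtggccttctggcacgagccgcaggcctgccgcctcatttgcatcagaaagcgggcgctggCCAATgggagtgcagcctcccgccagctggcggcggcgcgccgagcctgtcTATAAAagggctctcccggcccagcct
Ier5 promoter, chr1:155099637-155099886 (minus strand): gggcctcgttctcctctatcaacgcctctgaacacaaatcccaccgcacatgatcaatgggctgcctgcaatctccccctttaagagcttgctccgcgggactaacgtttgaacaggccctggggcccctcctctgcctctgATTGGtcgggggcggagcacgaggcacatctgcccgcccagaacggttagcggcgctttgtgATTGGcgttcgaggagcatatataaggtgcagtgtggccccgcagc
Btg1 promoter, chr10:96616751-96617000 (plus strand): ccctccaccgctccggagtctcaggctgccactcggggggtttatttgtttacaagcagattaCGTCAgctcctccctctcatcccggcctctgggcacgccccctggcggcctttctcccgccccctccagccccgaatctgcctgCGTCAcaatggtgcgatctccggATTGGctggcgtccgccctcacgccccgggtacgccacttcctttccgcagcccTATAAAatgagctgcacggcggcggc
Btg2 promoter, chr1:134079156-134079405 (minus strand): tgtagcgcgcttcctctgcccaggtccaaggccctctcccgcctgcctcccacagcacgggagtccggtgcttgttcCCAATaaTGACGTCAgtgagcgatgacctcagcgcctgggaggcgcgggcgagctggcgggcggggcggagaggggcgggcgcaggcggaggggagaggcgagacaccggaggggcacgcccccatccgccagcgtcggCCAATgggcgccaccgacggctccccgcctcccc

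The full cyclic AMP response element, the binding site of CREB, was found in the Btg2 promoter only, with its first base at -166 relative to the start. It occurred in 1.55% of the 32851 promoter windows of that table. The shorter site occurred in 17.8% of windows and, among these genes, in Btg2 and in Btg1, where it lay at -187 and -103 on the opposite strand. A CCAAT box was present in all 8 promoters against 33.8% of windows, a GC box (GGGCGG) in 7 against 32.7%, and a TATA box in Gadd45b, Gadd45g and Btg1 against 12.4%. Gadd45b and Gadd45g also shared an E box (CACGTG), found in 6.02% of windows. The Nr4a response element AAAGGTCA (1.34% of windows), the CArG box bound by SRF (1.47%), a heat shock element core (0.466%) and a glucocorticoid response element (0.387%) had no match in these 250 bases. Ier2, without a sequence in that table, could not be searched for any motif. Both strands were searched for every motif, the core lies within the full element, and a match of letters is a description of the window, not evidence of binding.

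Per kilobase of exon, Ier5 had the highest level of the 9 genes in every group. In the homecage it stood at 16.9 ± 2.13 CPM per kilobase (SD, n = 4), ahead of Gadd45g at 7.70 ± 0.560, Btg2 at 6.91 ± 0.539, Gadd45b at 5.56 ± 1.07 and Btg1 at 5.19 ± 0.931 CPM per kilobase. Btg3 at 2.43 ± 0.259, Ier2 at 2.01 ± 0.303, Ier3 at 1.85 ± 0.367 and Gadd45a at 1.36 ± 0.167 CPM per kilobase made up the lower tier. Neighbours in this order overlapped in their ranges at every step except below Ier5 and below Btg1. The same 5 genes lay above the same 4 in all 4 groups. After SOR in experiment 2 the ranges of all neighbours overlapped.

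Raw counts differed widely between the genes. Ier3 had 44 to 166 counts per library, Ier2 50 to 193 and Gadd45a 53 to 154, whereas Ier5 had 1046 to 3561 and Btg1 461 to 1702. Gadd45b, Gadd45g, Btg2 and Btg3 lay between, with 248 to 1207 counts. Gadd45a overlaps an antisense gene, E230016M11Rik, and Btg3 overlaps Cxadr and Gm49590. Whether counting used strand is not given in the sources used here, so reads of Gadd45a and of Btg3 may be mixed with those of the overlapping genes.

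**Figure D1:**
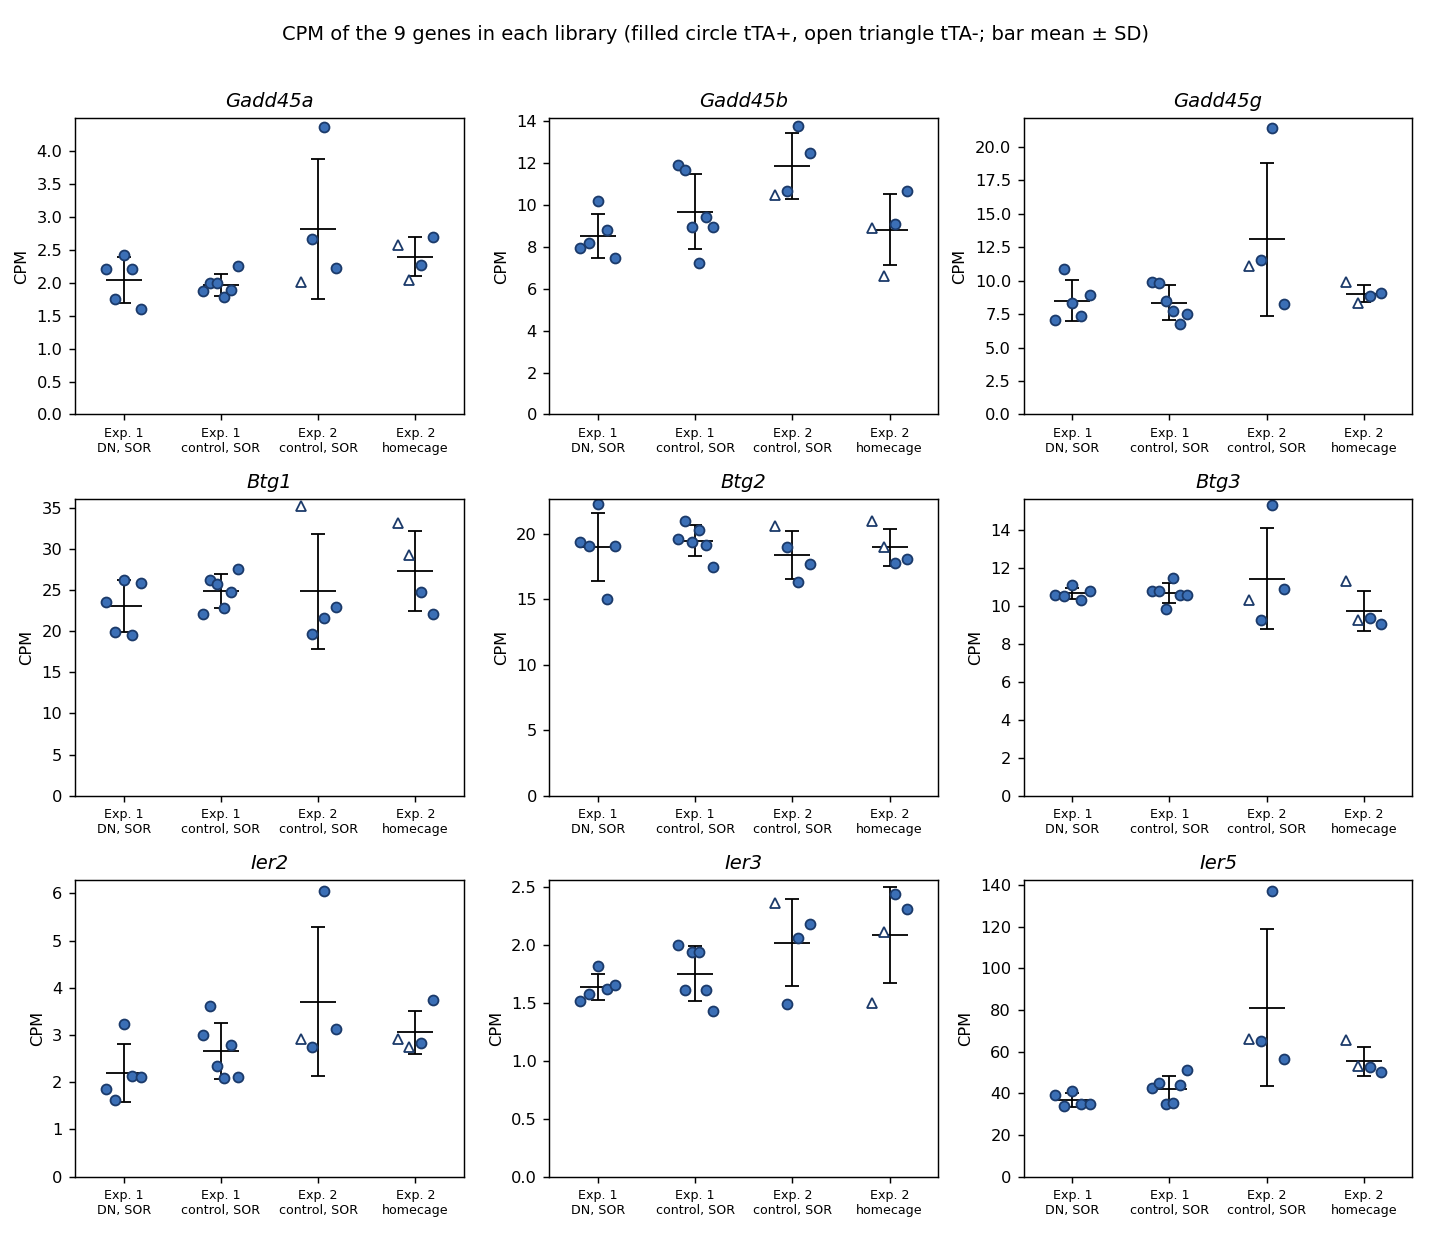
Level of each of the 9 genes in CPM (vertical axis from 0, scaled within each experiment) in every library of the 4 groups. Filled circles are tTA+ libraries, open triangles tTA- libraries, and bars are the mean ± SD. SOR replicate 3 of experiment 2 is the highest point in the panels of Gadd45a (4.36), Gadd45g (21.4), Ier2 (6.05) and Ier5 (137), and the 3 open triangles of Btg1 lie above all filled circles.

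The first comparison set SOR against the homecage among control animals of experiment 2 and asks which of these genes differ after the task. None of the 9 genes was called by edgeR's quasi-likelihood test at an adjusted p under 0.05, where 20 of 22305 genes (0.0897%) were, all of them higher after SOR. At an unadjusted p under 0.05, 3 of the 9 were higher, namely Gadd45b, Gadd45g and Ier5, where 3.67% of all genes were, and none was lower, where 3.93% were. In none of the 9 were the groups apart, against 5.56% of all genes. DESeq2 and limma-voom also called 0 of the 9, where they called 0.520% and 0.108% of all genes. The log2 fold change was above 0 in 6 of 9 genes, against 51.5% of all genes, with a median of 0.23 against 0.01 over all genes. Without SOR replicate 3 the median of the 9 was 0.02, and 5 lay above 0.

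Gadd45b, an activity-induced member of its family (ENSMUSG00000015312.9, chr10:80930073-80932204, plus strand, GRCm38), had 10.5, 10.7, 13.8 and 12.5 CPM in SOR replicates 1 to 4. Its homecage levels were 8.92, 6.60, 9.11 and 10.7 CPM. The lowest SOR libraries and the highest homecage library met at the same level, and the other homecage libraries lay below all SOR libraries. The group means were 11.9 ± 1.61 and 8.84 ± 1.70 CPM (SD, n = 4 each), and the log2 fold change was 0.43 (SE 0.157, 95% interval 0.09 to 0.77). The edgeR p was 0.0181 and the adjusted p 0.621. Leaving out SOR replicate 3 gave a log2 fold change of 0.35, with an unadjusted edgeR p of 0.0348 and an adjusted p of 0.577. Over all libraries left out in turn it lay between 0.31 and 0.54, and the unadjusted edgeR p was above 0.05 only without homecage replicate 2 (0.0507).

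Gadd45g (ENSMUSG00000021453.2, chr13:51846678-51848468, plus strand), a paralog that also acts on p38 and JNK, had 11.1, 11.5, 21.4 and 8.28 CPM after SOR. In the homecage it had 9.89, 8.31, 8.82 and 9.10 CPM. SOR replicate 3 was the highest of the 8 libraries by far, and SOR replicate 4 was just below all homecage libraries. The means were 13.1 ± 5.76 and 9.03 ± 0.657 CPM, with a log2 fold change of 0.53 (SE 0.239, interval 0.01 to 1.05, edgeR p 0.0471, adjusted p 0.652). Without SOR replicate 3 the log2 fold change was 0.20 and the unadjusted edgeR p 0.141. Leaving out any 1 homecage library also took the p above 0.05, to between 0.0598 and 0.0981, at log2 fold changes of 0.49 to 0.57.

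Gadd45a (ENSMUSG00000036390.8, chr6:67035096-67037457, minus strand), the p53-inducible founder of the family, had 2.01, 2.67, 4.36 and 2.22 CPM after SOR and 2.57, 2.04, 2.27 and 2.69 CPM in the homecage. Only SOR replicate 3 lay above the homecage range. Its log2 fold change was 0.22 (SE 0.245, interval -0.31 to 0.76), and -0.05 without that library.

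Ier5 (ENSMUSG00000056708.5, chr1:155096361-155099636, minus strand, 1 exon) had 66.0, 64.9, 137 and 56.7 CPM in SOR replicates 1 to 4. The homecage libraries had 65.6, 52.9, 52.4 and 50.3 CPM. SOR replicate 3 was far above every other library, and the remaining SOR libraries overlapped with homecage replicate 1. The means were 81.1 ± 37.5 and 55.3 ± 6.98 CPM, with a log2 fold change of 0.56 (SE 0.242, interval 0.03 to 1.09, edgeR p 0.0404, adjusted p 0.643). Without SOR replicate 3 the log2 fold change was 0.19 and the unadjusted edgeR p 0.0849. Leaving out homecage replicate 2, 3 or 4 also took the p above 0.05 (0.0788, 0.0801 and 0.0882), at log2 fold changes of 0.52 to 0.54.

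Ier2 (ENSMUSG00000053560.4, chr8:84661331-84662852, minus strand, 1 exon) had 2.92, 2.74, 6.05 and 3.12 CPM after SOR and 2.91, 2.74, 2.84 and 3.74 CPM in the homecage. The other SOR libraries overlapped with the homecage, whose highest library, replicate 4, was above them. The log2 fold change was 0.26 (SE 0.256, interval -0.30 to 0.82) and turned to -0.06 without SOR replicate 3. Ier3 (ENSMUSG00000003541.6, chr17:35821684-35822923, plus strand) ranged from 1.49 to 2.36 CPM after SOR and from 1.50 to 2.44 CPM in the homecage, a log2 fold change of -0.05 (SE 0.214) that was -0.06 without SOR replicate 3.

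Among the BTG genes, Btg2 (ENSMUSG00000020423.6, chr1:134075170-134079120, minus strand), which is a p53 target and a classical immediate early gene, had 20.6, 19, 16.3 and 17.7 CPM after SOR and 21.0, 19, 17.8 and 18.1 CPM in the homecage. SOR replicates 3 and 4 lay below all homecage libraries and the other SOR libraries within their range, and the log2 fold change was -0.03 (SE 0.103) with a 95% interval of -0.26 to 0.19, and 0.02 without SOR replicate 3. Btg3 (ENSMUSG00000022863.14, chr16:78332637-78377192, minus strand) had 10.3, 9.27, 15.3 and 10.9 CPM after SOR and 11.3, 9.25, 9.38 and 9.05 CPM in the homecage. Its log2 fold change of 0.23 (SE 0.159) fell to 0.07 without SOR replicate 3, again the library with the highest level. Btg1 (ENSMUSG00000036478.8, chr10:96617006-96622809, plus strand) had a log2 fold change of -0.12 (SE 0.185) and of -0.06 without SOR replicate 3. Without SOR replicate 1, the only tTA- library after SOR, it was -0.34 (unadjusted edgeR p 0.0427, adjusted p 0.741), and its values are given with the tTA comparison.

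**Figure D2:**
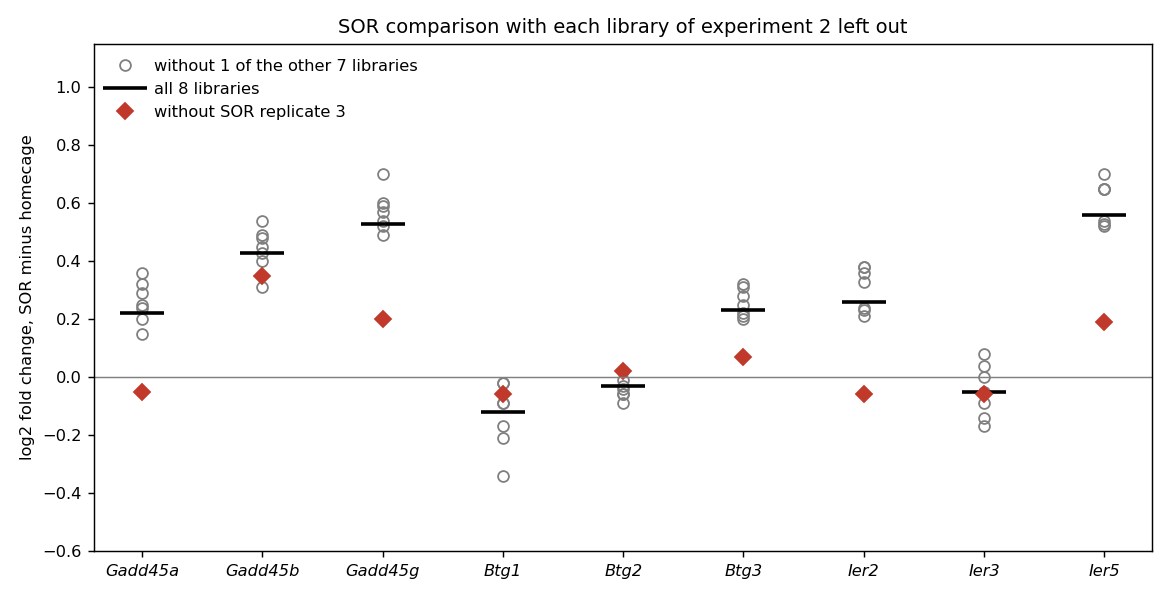
Log2 fold change of each gene between SOR and homecage (vertical axis) with all 8 libraries (bar), without SOR replicate 3 (diamond) and without each of the other 7 libraries (circles). For Gadd45a, Gadd45g, Btg3, Ier2 and Ier5 the diamond lies below all circles, at -0.05, 0.20, 0.07, -0.06 and 0.19, while for Gadd45b it lies among them at 0.35.

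SOR replicate 3 thus carried much of the mean difference in 5 of the 9 genes. Relative to the mean of the other SOR libraries it was higher by a log2 of 1.13 in Ier5, 1.07 in Gadd45g, 1.04 in Ier2, 0.92 in Gadd45a and 0.59 in Btg3. It was higher by 0.31 in Gadd45b and by 0.07 in Ier3, and lay at -0.22 in Btg1 and -0.23 in Btg2. The median of 24 other immediate early genes in the same library was 0.10, that of all 22305 genes tested -0.03, that of 723 protein-coding genes whose longest transcript has over 60% GC 0.46, and that of 6925 with 40 to 50% GC was -0.11. The 5 genes themselves had 46.5 to 60.9% GC. The part of GC content or depth in their levels was not tested.

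tTA genotype was uneven between the SOR and homecage groups. With tTA as a covariate, Gadd45b had a log2 fold change of 0.37 (unadjusted edgeR p 0.0269), Gadd45g 0.50 (p 0.0834) and Ier5 0.55 (p 0.0703). Among tTA+ libraries alone, 3 against 2, the values were 0.32, 0.62 and 0.76, with unadjusted edgeR p of 0.114, 0.134 and 0.0696. All 8 choroid plexus markers had a log2 fold change above 0 with SOR (median 2.16, 4 at an unadjusted edgeR p under 0.05, 0 called by edgeR, DESeq2 or limma-voom), and their part in these values was not tested. The 2 SOR libraries with the highest marker sums, replicates 2 and 1 at 2201 and 989 CPM, were the lowest of their group in Gadd45b, at 10.7 and 10.5 CPM.

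**Figure D3:**
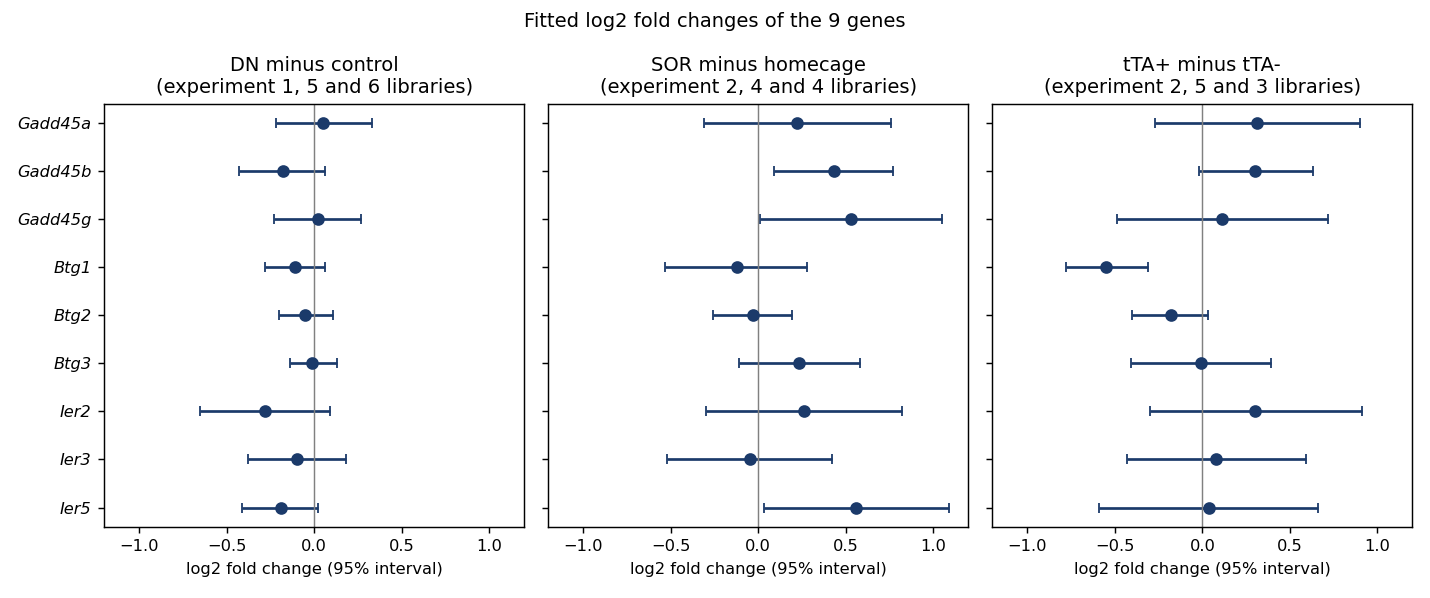
Fitted log2 fold changes of the 9 genes (points) with 95% intervals (bars) in the 3 comparisons. In the SOR panel the intervals of Gadd45b (0.09 to 0.77), Gadd45g (0.01 to 1.05) and Ier5 (0.03 to 1.09) lie above 0, in the tTA panel that of Btg1 (-0.78 to -0.31) lies below 0, and in the DN panel all 9 intervals include 0.

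The second comparison set DN+ against DN- libraries of experiment 1, all tTA+ and all after SOR, and asks whether blocking Nr4A-dependent transcription is accompanied by other levels of these genes. None of the 9 was called by edgeR, where 2 of 22391 genes (0.00893%) were, and with all 11 libraries none had an unadjusted edgeR p under 0.05, where 3.83% of genes did. DESeq2 and limma-voom also called 0 of the 9, where each called 0.00893% of all genes. In no gene were the groups apart, against 0.304% of all genes. The log2 fold change was below 0 in 7 of 9 genes, against 50.0% of all genes, with a median of -0.10 against 0.00 over all genes.

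Ier5 had the smallest p of the 9. Its levels were 39.2, 33.8, 41.2, 34.9 and 35.0 CPM in DN replicates 1 to 5, and 34.7 CPM at the lowest, 43.3 at the median and 51.0 at the highest in the 6 controls. The DN libraries all lay inside or just under the control range. The means were 36.8 ± 3.21 (n = 5) and 42.1 ± 6.18 CPM (n = 6), with a log2 fold change of -0.19 (SE 0.0992, interval -0.41 to 0.02, edgeR p 0.0759, adjusted p 0.999).

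Ier2, its relative, had 1.85, 1.62, 3.23, 2.14 and 2.11 CPM in DN libraries and 2.09, 2.57 and 3.61 CPM as the lowest, median and highest of the controls. DN replicates 1 and 2 lay below all controls, and the other 3 lay inside their range. The log2 fold change was -0.28 (SE 0.175, interval -0.65 to 0.09, edgeR p 0.125, adjusted p 0.999). Gadd45b had 7.94, 8.18, 10.2, 8.83 and 7.47 CPM in DN libraries and 7.23, 9.20 and 11.9 CPM as lowest, median and highest of the controls. The 2 highest control libraries, replicates 1 and 2 at 11.9 and 11.7 CPM, lay above all DN libraries, and the log2 fold change was -0.18 (SE 0.117, interval -0.43 to 0.06, edgeR p 0.130). Those 2 libraries also had the highest choroid plexus marker sums of the controls, 4139 and 1357 CPM, but DN replicate 2, with a sum of 1651 CPM, had a Gadd45b level of 8.18 CPM. The part of those markers in the value was not tested.

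Single libraries moved these 3 genes across an unadjusted p of 0.05. Without DN replicate 3 the edgeR p was 0.0110 for Ier2 (log2 fold change -0.46), 0.0431 for Gadd45b (-0.26) and 0.0457 for Ier5 (-0.24). Without control replicate 4 it was 0.0214 for Gadd45b and 0.0223 for Ier5, and without control replicate 3 it was 0.0132 for Ier5. With DESeq2 and all libraries the unadjusted p of Ier5 was 0.0288. The adjusted p was 0.974 or higher in each of these.

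The other 6 genes lay closer to 0. Btg1 had a log2 fold change of -0.11 (interval -0.28 to 0.06), Ier3 of -0.10 (-0.38 to 0.18), Btg2 of -0.05 (-0.20 to 0.11) and Btg3 of -0.01 (-0.14 to 0.13). Gadd45g at 0.02 (-0.23 to 0.27) and Gadd45a at 0.05 (-0.22 to 0.33) were the only values above 0. The interval of Btg3 was the narrowest: its level was 10.7 ± 0.303 CPM in DN and 10.7 ± 0.542 CPM in control libraries.

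The controls of experiment 1 and SOR replicates 2 to 4 of experiment 2 carry the same labels (DN-, tTA+, after SOR), but experiment and preparation cannot be told apart between them. On 1 scaling over all 19 libraries, Ier5 ranged from 33.1 to 49.9 CPM in experiment 1 and from 51.8 to 143 CPM in experiment 2, so that every library of experiment 2, homecage included, was above the 11 SOR libraries of experiment 1. Between those like-labelled libraries the ranges were 33.9 to 49.9 CPM (6 libraries) and 59.0 to 143 CPM (3 libraries). This contrast was noticed in the values and was not tested. How many of all genes divide in this way between the experiments was not counted, so nothing here marks it as particular to Ier5.

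The third comparison set tTA+ against tTA- libraries of experiment 2 with exposure in the model and asks how the genes differ with tTA genotype, with 1 tTA- library after SOR. It shares its libraries with the SOR comparison. Of the 9 genes, edgeR called 0, where 82 of 22904 genes (0.358%) were, and limma-voom also called 0, where 0.428% of all genes were. DESeq2 called 1, Btg1, where it called 255 of 22904 genes (1.11%). Only Btg1 had an unadjusted p under 0.05, where 3.44% of all genes were lower at that threshold, and only Btg1 had groups that did not overlap, where 3.27% of all genes were lower without overlap.

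Btg1, an antiproliferative gene expressed in resting cells, had 33.2 and 29.3 CPM in the tTA- and 24.8 and 22.1 CPM in the tTA+ libraries of the homecage. After SOR the tTA- library had 35.2 CPM and the tTA+ libraries 19.7, 21.6 and 23.0 CPM. All tTA+ libraries thus lay below all tTA- libraries, within the homecage and after SOR alike. The means were 22.3 ± 1.86 (n = 5) and 32.6 ± 3.02 CPM (n = 3), and the log2 fold change was -0.55 (SE 0.107, interval -0.78 to -0.31, edgeR p 4.21e-04, adjusted p 0.0835).

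The call for Btg1 depended on the test, on settings and on single libraries. The adjusted p was 0.00265 with DESeq2, 0.00260 in edgeR with no filter on low counts and 0.00459 in edgeR with all 19 libraries in 1 fit, at log2 fold changes of -0.54 to -0.55. Leaving SOR replicate 3 out of the edgeR fit gave 0.0205. Leaving out SOR replicate 1, the only tTA- library after SOR, gave 0.777 and a log2 fold change of -0.42. Leaving out any other single library gave 0.0858 to 0.455. With DESeq2 size factors, upper quartile scaling, at least 10 counts in every library or limma-voom, the adjusted p was 0.0578 to 0.0879. With the replicate block Btg1 was not called (log2 fold change -0.57, unadjusted edgeR p 0.0493).

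Experiment 1 held no tTA- library, so genotype and experiment cannot be told apart between the experiments. Its 11 libraries, the DN+ ones included, were all tTA+. On 1 scaling over 19 libraries, Btg1 ranged from 19.2 to 27.0 CPM in them (median 24.3), from 20.1 to 25.5 in the tTA+ libraries of experiment 2 (median 22.8) and from 29.7 to 36.6 in its tTA- libraries (median 34.2). The tTA- libraries were thus above every tTA+ library of both experiments. The share of all genes divided in this way was not counted. Markers of dentate granule cells, the principal neurons of the dentate gyrus, followed the same division. The summed level of Prox1, C1ql2, Dsp, Plk5, Glis3 and Lct was 433 to 517 CPM in the 3 tTA- libraries, 276 to 360 in the 5 tTA+ libraries of experiment 2 and 237 to 348 in experiment 1. In the fit, 5 of these 6 markers lay below 0 in tTA+ libraries (median -0.77), and edgeR called C1ql2 (-2.19), Dsp (-1.06) and Glis3 (-0.87). With 1 library left out at a time, C1ql2 was called in 8 of 8 fits, and Dsp and Glis3 in 3 of 8 each. With the replicate block none of the 3 was called (edgeR adjusted p 0.419 for C1ql2). The part of the granule cell markers in the Btg1 result was not tested.

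**Figure D4:**
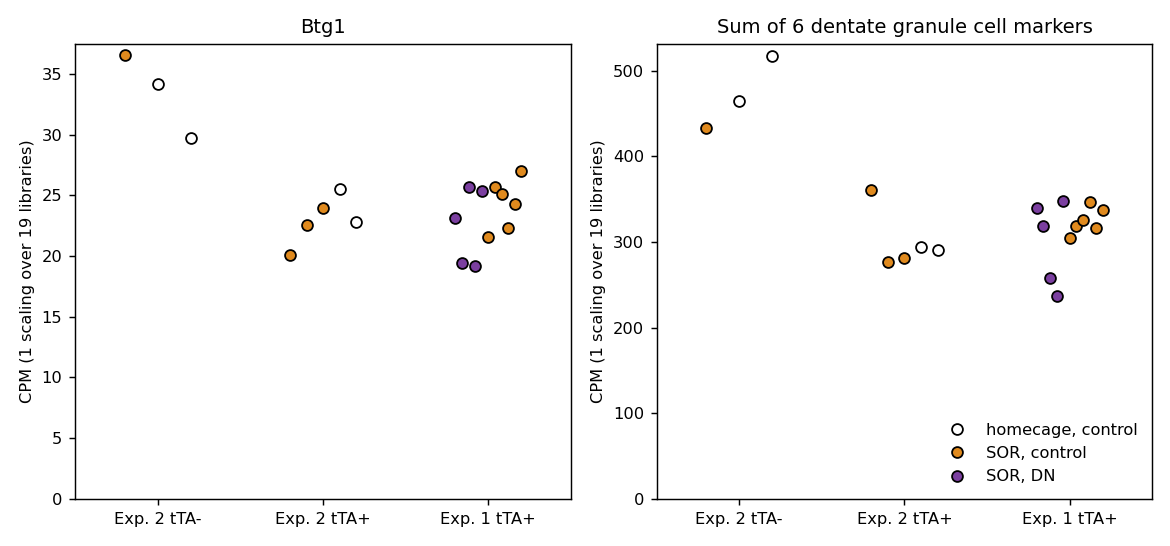
Level of Btg1 (left) and summed level of 6 dentate granule cell markers (right) in each library, in CPM with 1 scaling over 19 libraries, by experiment and tTA genotype; the fill shows exposure and DN. In both panels the 3 tTA- libraries (29.7 to 36.6 and 433 to 517 CPM) lie above all tTA+ libraries.

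The other members showed no such division. Btg2 had 20.2 ± 1.09 CPM in tTA- (n = 3) and 17.8 ± 0.974 CPM in tTA+ libraries (n = 5), with groups that met at 19 CPM and a log2 fold change of -0.18 (SE 0.0972, edgeR p 0.0860). Gadd45b lay at 0.30 (SE 0.148, edgeR p 0.0666), Gadd45a at 0.31 (interval -0.27 to 0.90) and Ier2 at 0.30 (interval -0.30 to 0.91). Gadd45g, Btg3, Ier3 and Ier5 had log2 fold changes between -0.01 and 0.11. The median of the 9 was 0.08 against 0.01 over all genes.

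The genes that these families work with were described from lists of partners, regulators and coregulated genes. These lists were drawn up with earlier results of these data known, so their counts and calls are a description. After SOR, the kinase and cell cycle partners of GADD45 (14 tested, among them Map3k4, Mapk14 and Pcna) had log2 fold changes with a median of 0.03, and 7 lay above 0. In that list edgeR called Cdkn1a, the cell cycle inhibitor p21, which was higher after SOR at 4.83 ± 1.38 against 1.67 ± 0.262 CPM (n = 4 each) and a log2 fold change of 1.54 (SE 0.230, adjusted p 0.0404). The DNA demethylation list (14 tested, among them Tet1, Tdg and Mbd4) had a median of 0.03 (-0.04 without SOR replicate 3, with 6 above 0) and 0 called; its smallest p was that of the glycosylase gene Mbd4, at -0.21 (edgeR p 0.0928). The CCR4-NOT list of BTG partners (14 tested) had the same median of 0.03 and 0 called, with the smallest p in Pabpc1, the poly(A) binding protein gene, at -0.20 (edgeR p 0.0747). In the demethylation and CCR4-NOT lists 0 genes had an unadjusted p under 0.05, and DESeq2 and limma-voom called 0.

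Of 15 genes around HSF1 and PP2A, through which IER5 acts, 11 were above 0 after SOR, with a median of 0.14. Hspa1b, an inducible HSP70 gene, rose from 9.27 ± 0.500 to 18.4 ± 1.74 CPM (log2 fold change 0.99, SE 0.104, edgeR adjusted p 0.00879), and its near-identical copy Hspa1a, with which it may share reads, lay at 0.77 (adjusted p 0.0525). With all libraries DESeq2 called Hspa1b, Hspa1a and Dnajb1 in this list and limma-voom Hspa1b and Hspa1a, and without SOR replicate 3 edgeR called the 3 that DESeq2 did. Among 12 upstream regulators, 7 were above 0 and edgeR called 0, with 4 higher at an unadjusted p under 0.05; the smallest p was that of Egr1 at 0.63 (SE 0.125, edgeR p 3.32e-04, adjusted p 0.157), which DESeq2 called. Of 12 p53 targets, 10 were above 0 with a median of 0.20, and Cdkn1a was the call.

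Of 24 other immediate early genes, 20 were above 0 after SOR with a median of 0.27, and edgeR called Fos (1.17, SE 0.182, adjusted p 0.0432) and Arc (0.79, SE 0.0991, adjusted p 0.0131). Without SOR replicate 3 the median was 0.25, and Fos and Arc were again the calls. Of 13 glucocorticoid-responsive genes all were above 0, with a median of 0.55, and Plin4 (2.10), Tsc22d3 (1.04) and Cdkn1a were called by edgeR. Cdkn1a is the same gene that was called in the GADD45 and p53 lists, and this list too was drawn up with earlier results known. Without SOR replicate 3 its median was 0.50 and 5 were called, with Errfi1 and Sgk1 added. These calls depended on single libraries and on settings. With 1 library left out at a time, edgeR called Plin4 in 8 of 8 fits, Hspa1b in 5, Arc and Tsc22d3 in 4 each, Cdkn1a in 2 and Fos in 1, the fit without SOR replicate 3. The highest adjusted p over those fits was 0.265 for Fos and 0.0863 for Arc, at log2 fold changes of 1.03 to 1.32 and 0.73 to 0.85. With tTA as a covariate edgeR called neither Fos (adjusted p 0.0632) nor Cdkn1a (0.0594), and with the replicate block again neither (0.0523 and 0.0710). Fos was also not called under upper quartile scaling (edgeR adjusted p 0.0545), with at least 10 counts in every library (0.0525) or with all 19 libraries in 1 fit (0.240), and that joint fit did not call Arc (0.294) or Hspa1b (0.0995). Among tTA+ libraries alone none of the 6 was called (edgeR adjusted p 0.0953 for Plin4 and 0.998 for the others). No set test was made, and whether the 9 genes differ from these lists was not tested. The relatives Tob1, Tob2 and Ier5l had a median of 0.10, and Btg4 did not pass the filter. Without SOR replicate 3 the median was 0.04 for these relatives, 0.09 for the HSF1 and PP2A list (12 above 0), 0.02 for the GADD45 kinase list (11 above 0), 0.04 for the CCR4-NOT list (10 above 0), 0.11 for the upstream regulators (9 above 0) and 0.18 for the p53 targets (10 above 0).

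In the DN comparison edgeR, DESeq2 and limma-voom called 0 genes of these lists. At an unadjusted edgeR p under 0.05, 2 of the other immediate early genes were lower, and 1 each of the CCR4-NOT, p53 and glucocorticoid lists. Over all genes, 406 of 22391 were lower at that threshold. The glucocorticoid gene was Per1, which is also 1 of those 2 immediate early genes. For the other immediate early genes the median was -0.23, with 1 of 24 above 0, beside -0.10 for the 9 genes. All 8 choroid plexus markers were also below 0 with DN (median -0.92, from -1.33 to -0.62, 0 at an unadjusted edgeR p under 0.05), and their part in these medians was not tested. Per1 had the smallest p of the other immediate early genes, at -0.21 (edgeR p 0.0130, adjusted p 0.999). The 15 HSF1 and PP2A genes had a median of -0.05 with 1 above 0, the 12 p53 targets -0.05 with 2 above 0 (smallest p in Mdm2, -0.09), and the 12 upstream regulators -0.06 with 1 above 0 (Creb1, -0.06). The GADD45 kinase list (Mapk11, 0.10), the demethylation list (Mbd4, 0.14) and the CCR4-NOT list (Cnot8, -0.10) had medians of -0.01, -0.01 and -0.02. The 2 comparisons share no library.

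Within groups, Gadd45b varied with Fos. Over 19 libraries, each centred on its group mean, log2 CPM of Gadd45b and Fos had r = 0.81 and rho = 0.81 (permutation within groups, two-sided, 100000 resamples, p = 1e-04 for each, adjusted p 0.00495 and 0.0099 over 99 relations). It held within experiment 1 (r = 0.87, 11 libraries) and within experiment 2 (r = 0.87, 8 libraries), and r was 0.72 without the 2 libraries farthest from the median of Fos and 0.85 without SOR replicate 3. Other immediate early genes did not share this in both experiments. In experiments 1 and 2, r of Gadd45b was 0.84 and 0.38 with Arc, 0.85 and -0.51 with Nr4a1, and 0.64 and -0.12 with Egr1. Gadd45b also varied with Ier2 (r = 0.75, rho = 0.71, permutation p 3e-05 and 0.00091, adjusted p 0.00297 and 0.045), with r = 0.81 in experiment 1, 0.68 in experiment 2, 0.77 without SOR replicate 3 and 0.74 without the 2 farthest libraries of Ier2. These were the only relations of the 99 with an adjusted p under 0.05 for both r and rho, the 7 genes outside the families were chosen after their values were seen, and libraries share depth and dissection as well as genes.

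Ier2 against Fos had r = 0.59 and rho = 0.64 (permutation p 0.00284 and 0.00518, adjusted p 0.0703 and 0.128), with 0.78 in experiment 1, 0.27 in experiment 2, 0.49 without the 2 farthest libraries and 0.78 without SOR replicate 3. Of the 7 genes outside the families, Gadd45g had its highest r with Tsc22d3, the glucocorticoid-induced leucine zipper gene, at r = 0.69 and rho = 0.72 (permutation p 0.00254 and 0.00237, adjusted p 0.0703 and 0.0782), with 0.71 in each experiment and 0.63 without the 2 farthest libraries. Over the 36 pairs of the 9 genes the median r was 0.12, from -0.31 to 0.79. The highest, Btg3 with Ier5 and Gadd45a with Ier5 (both 0.79), were 0.33 and 0.44 without SOR replicate 3, and Gadd45g with Ier5 went from 0.64 to 0.04.

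**Figure D5:**
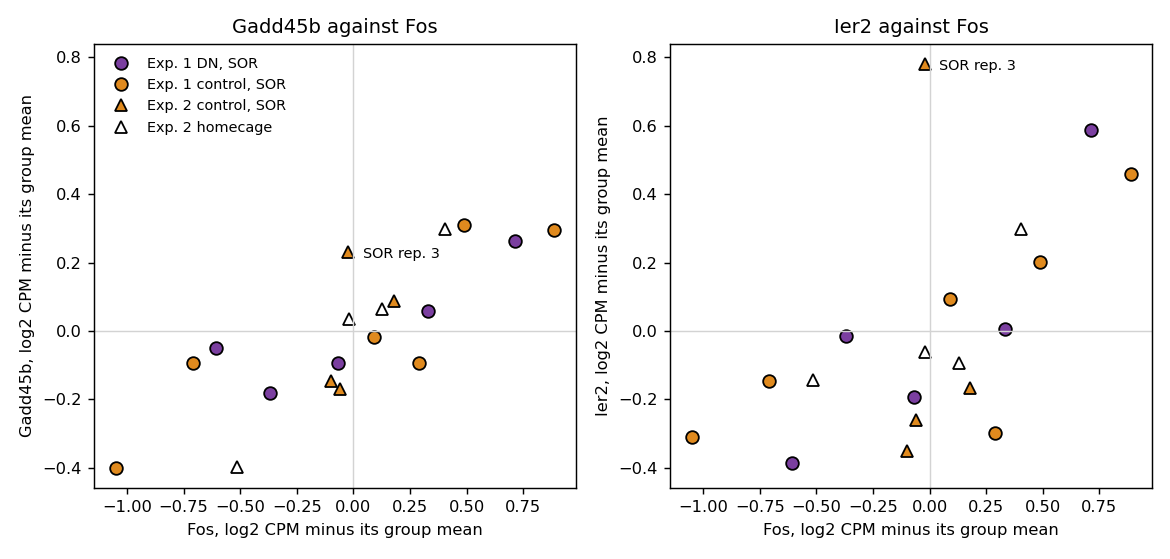
Gadd45b (left) and Ier2 (right) against Fos in 19 libraries, all as log2 CPM minus the mean of the library's group; shape and fill show experiment and group. Gadd45b was higher where Fos was higher in both experiments (r = 0.81), while SOR replicate 3, marked, lies above the other libraries in Ier2.

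The 2 genes most like each member in this centred measure were searched among 12045 genes with a mean of at least 5 CPM, with r over 19 libraries and, after it, without SOR replicate 3. For Gadd45b they were Ginm1 (0.87, then 0.86) and Mcl1 (0.84, then 0.83), an early response gene of the BCL2 family. For Btg1 they were Pde7b (0.87, then 0.90) and Trpc6 (0.87, then 0.87), and for Ier3 Ints4 (0.81, then 0.84) and Lage3 (0.79, then 0.84). These 3 members kept their values without that library. The group means do not take out tTA genotype, by which Btg1 differed. In a measure added after seeing the data, centred on group and tTA genotype over 18 libraries (without the lone tTA- library after SOR), r of Btg1 was 0.62 with Pde7b and 0.60 with Trpc6, and r of Ier3 was 0.71 with Ints4 and 0.72 with Lage3. In that measure Gadd45b had r = 0.81 with Fos and 0.75 with Ier2. Btg2 was closest to Mypop (0.79, then 0.78) and Srd5a3 (0.76, then 0.73).

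The likeness of the other 5 genes fell when SOR replicate 3 was left out. Ier5 was closest to Zfp444 (0.95, then 0.84) and Pcsk1n (0.93, then 0.76), Gadd45a to Wdr4 (0.93, then 0.83) and Gramd4 (0.89, then 0.75), and Gadd45g to Clba1 (0.91, then 0.80) and Zfp276 (0.90, then 0.75). Btg3 was closest to Gm5814 (0.93, then 0.79) and Gm7292 (0.93, then 0.78), and Ier2 to Ing5 (0.84, then 0.71) and Mrpl17 (0.84, then 0.70). Without that library, Fos was the second closest gene to Gadd45b (0.85) and Dusp1, another immediate early gene, the closest to Ier2 (0.79). As the highest of 12045, these values are given without a p.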

How the data were processed

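Whole-number counts per gene were deposited by the authors in 1 table of 51789 Ensembl identifiers and 19 libraries. Per the labels' protocols, RNA came from frozen dorsal hippocampus, taken up in Trizol, and a TruSeq kit with ribosomal depletion was used. The submitters' processing notes name STAR, SAMtools 1.6, featureCounts 1.4.4 and mm10; settings, strand and annotation are not given in the sources used here.

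Symbols, positions and exon lengths came from GENCODE M21 (GRCm38), which held 51596 of the identifiers. Libraries of 1 group were set against each other in 37 pairs; chi-square per degree of freedom was 5.07 to 83.6, more than counting gives, and none was merged. Each comparison was fitted alone over all genes with edgeR 4.0.16 (TMM scaling, filterByExpr, robust quasi-likelihood F test, two-sided) under R 4.3.3. P-values were adjusted over all genes tested (Benjamini-Hochberg) and called at 0.05. SE was derived from the log2 fold change and F. Levels are TMM-scaled CPM, and correlations use log2 CPM with a prior count of 2. The method was tested on simulated data. Molecular identifiers are not mentioned in the labels, so reads may not be independent molecules and precision was taken from the spread of replicates.

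Named genes were the 9 members, list genes called by edgeR, the gene with the smallest p of each list after SOR and with DN, and the 2 genes most correlated with each member; Nr4a1, Hspa1a, Dnajb1, Dusp1 and the genes correlated by name were chosen after their values were seen, and list examples only show what a list holds. The members and lists were chosen with earlier results of these data known. Alternatives were DESeq2 1.42.0 and its size factors, limma-voom (limma 3.58.1), upper quartile scaling, no filter, at least 10 counts in every library, an adjusted p of 0.1, a joint fit of all libraries, a replicate block, a tTA covariate, tTA+ animals alone, and each library left out.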

Additional observations from a re-analysis of the deposited data

Results flagged for a closer look

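In groups of 4 to 6 libraries, the gap between an extreme library and its nearest neighbour was set against the whole range of the group (Dixon's criterion). Of 36 groups tested, 5 held such a library, where chance gives about 1 in 20. After SOR in experiment 2, replicate 3 stood apart in Ier5 at 137 CPM and in Ier2 at 6.05 CPM. In the homecage, replicate 1 stood apart in Ier5 at 65.6 CPM and in Btg3 at 11.3 CPM, and replicate 4 in Ier2 at 3.74 CPM. All of them were the highest of their group, and all were in experiment 2.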

How the results depend on the processing

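The count of genes changed with DN was 2 under every alternative run, with 0 of the 9 members. Genes changed with SOR numbered 20, against 35 at an adjusted p of 0.1, 36 with no filter, 100 with all 19 libraries in 1 fit, 116 with DESeq2, 11 with tTA as a covariate, 0 in tTA+ animals alone, and 1 to 50 with 1 library left out (1 without homecage replicate 1, 2 or 3, 7 without homecage replicate 4, 2 without SOR replicate 1, 50 without SOR replicate 3); members called stayed at 0. Genes changed with tTA numbered 82, against 133, 265, 383 and 255 at an adjusted p of 0.1, with no filter, in 1 fit and with DESeq2, each with 1 member, Btg1 (log2 fold change -0.54 to -0.55, adjusted p from 0.00260), and 10 to 290 with 1 library left out (0 to 1 members). The extremes were 10 on leaving out SOR replicate 1 and 290 on leaving out SOR replicate 3. The causes were not tested.

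Same-numbered libraries correlated at -0.05 to 0.194 in experiment 1 and 0.046 to 0.391 in experiment 2, with 1 of 5 and 2 of 4 closest to their own number, so the samples share only a number. With the replicate block, SOR gave 9 genes and tTA 0, the member median with tTA was -0.23, and tTA values turned in Btg2 (0.06), Ier2 (-0.29), Ier3 (-0.61) and Ier5 (-0.23), as did Gadd45g with DN (-0.01). Other signs that turned were Btg3 with DN under upper quartile scaling (0.01), Btg2 with SOR in 1 fit (0.02) and with tTA as a covariate (0.01), and Ier5 with tTA under limma-voom (-0.00406).

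With 1 library left out, the member median was -0.14 to -0.06 with DN, 0.02 to 0.36 with SOR and -0.08 to 0.18 with tTA. Signs turned with DN in Gadd45a (-0.01 to 0.13), Gadd45g (-0.08 to 0.08), Btg2 (-0.11 to 0.03) and Btg3 (-0.03 to 0.02), with SOR in Gadd45a (-0.05 to 0.36), Btg2 (-0.09 to 0.02), Ier2 (-0.06 to 0.38) and Ier3 (-0.17 to 0.08), and with tTA in Gadd45g (-0.08 to 0.21), Btg3 (-0.16 to 0.10), Ier3 (-0.09 to 0.39) and Ier5 (-0.21 to 0.18). Btg1 with tTA was -0.62 to -0.42.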
